A study of Mus musculus with 7 samples.

Results

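The Th1 program genes are 9 genes that make, sense or relay the signals of type 1 helper T cells: Tbx21, Eomes, Ifng, Stat4, Il12rb1, Il12rb2, Runx3, Hopx and Txk. They were chosen by name, as the probe sets whose array annotation names 1 of these genes and no other. This gave 12 probe sets for the 9 genes, with 1 probe set for each of 6 genes and 2 for each of 3, out of 18193 genes on the array. The brightest probe set of a gene, by its mean over all arrays, represents it unless another is named. A gene was tested where the mean of at least 1 group reached 5 on the log2 scale, which held for 11460 genes and for 8 of the 9 members. Il12rb2 lay below this level in the mean of every group and is given as values only.

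Sf.Il2-/- mice are scurfy mice that also have a null Il2 gene (labelled B6.129P2-Il2tm1Hor/J), and gave 3 arrays. Sf mice (labelled B6.Cg-Foxp3sf/J) carry the scurfy mutation of Foxp3, the factor that regulatory T cells depend on, and gave 3 arrays. B6 mice (C57BL/6), the wild type, gave 1 array of RNA pooled from 2 mice. The Foxp3 mutation is thus common to both mutant groups, and no group lacks Il2 alone. All mice were males of 3 weeks, and the mutations are germline, so they also affect cells other than the T cells measured. Per the labels, B cells, CD8 T cells, myeloid cells and NK1.1 positive cells were removed from lymph node suspensions before a sort on CD3 and CD4. Total RNA was then hybridised to Affymetrix mouse arrays, which report a brightness for each probe set.

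Th1 cells arise when a CD4 T cell meets interleukin-12 and interferon gamma. Interleukin-12 binds a receptor made of the chains encoded by Il12rb1 and Il12rb2 and activates the transcription factor STAT4, while interferon gamma induces the T-box factor T-bet, encoded by Tbx21. T-bet acts with Runx3 at the Ifng gene, and Eomes, a T-box factor best known from CD8 T cells and natural killer cells, can also drive Ifng. In scurfy mice the lack of functional regulatory T cells leads to a fatal activation of CD4 T cells, and Th1 cytokines are part of it.

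To show the DNA next to which these factors act, the bases before the annotated transcription start are printed for Ifng, the signature cytokine gene, and for Eomes and Tbx21, the T-box factor genes among the members. The sequences are from RefSeq (GRCm38.p6), 5′ to 3′ on the gene's strand, and end where the annotated gene begins. Capitals mark matches to a search on both strands for 3 motifs, the T-box core GGTGTG, the STAT site TTCNNNGAA and the RUNX core TGTGGT, of which none overlapped another.
Ifng, chr10:118440796-118441045, plus strand: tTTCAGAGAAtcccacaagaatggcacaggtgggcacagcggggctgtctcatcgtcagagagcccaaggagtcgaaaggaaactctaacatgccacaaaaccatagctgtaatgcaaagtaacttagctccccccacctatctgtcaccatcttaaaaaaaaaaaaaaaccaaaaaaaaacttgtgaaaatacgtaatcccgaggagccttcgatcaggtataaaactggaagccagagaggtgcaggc
Eomes, chr9:118477939-118478185, plus strand: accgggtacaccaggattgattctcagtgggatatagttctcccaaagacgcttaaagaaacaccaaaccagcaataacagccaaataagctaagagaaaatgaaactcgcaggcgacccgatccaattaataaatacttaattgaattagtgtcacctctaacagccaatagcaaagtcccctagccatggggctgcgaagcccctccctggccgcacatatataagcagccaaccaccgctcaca
Tbx21, chr11:97115332-97115581, minus strand: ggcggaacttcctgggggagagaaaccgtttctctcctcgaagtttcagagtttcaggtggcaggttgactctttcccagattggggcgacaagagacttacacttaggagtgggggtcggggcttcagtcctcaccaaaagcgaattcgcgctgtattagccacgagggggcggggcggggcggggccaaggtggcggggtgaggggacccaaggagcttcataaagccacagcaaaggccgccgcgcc
The Ifng window holds 1 STAT match, which begins 249 bases before the start of transcription, and the Eomes and Tbx21 windows hold none of the 3 motifs. The RefSeq promoter table had windows for 8 of the 9 members, 12 windows in all for their alternative starts, and 250 bases before each start were searched. Il12rb2 held a STAT match at 123 bases. Runx3 held 2 RUNX matches, at 134 and 126 bases, and Txk held a T-box match at 175 bases before one start and a RUNX match at 20 bases before another. Of 32851 promoter windows of this length, 16.3% held the T-box core, 7.02% the STAT site and 14.0% the RUNX core, so single matches of this kind are common.

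In the cells sorted from the mutants, part of the Th1 program stood above wild type and part did not. Eomes rose in Sf.Il2-/- arrays against B6, 5.75-fold, and Il12rb1 rose in Sf arrays against B6, 3.63-fold. Txk fell in both mutant groups against B6, 2.82-fold in Sf.Il2-/- and 3.26-fold in Sf. Ifng was 6.49 times as bright in Sf.Il2-/- as in B6 and 5.80 times as bright in Sf as in B6, just outside the threshold of 0.05 on the adjusted p in both. The calls of Eomes, Il12rb1 and Txk were each lost in some of the alternative settings given below, and Ifng passed in some. So did Il12rb1 in Sf.Il2-/- against B6 and Eomes in Sf.Il2-/- against Sf. Every comparison with B6 rests on its single array. Tbx21, Stat4, Runx3 and Hopx passed in no comparison. Between Sf.Il2-/- and Sf, 0 of the 8 tested members passed by limma. Of all tested genes, 0.279% passed in Sf.Il2-/- v Sf, 2.47% in Sf v B6 and 2.69% in Sf.Il2-/- v B6.

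Whole-series facts that bear on these values are few. Median intensities ran from 29.3 to 32.4 per array and upper quartiles from 110 to 145, and precision is limited by how few arrays there are. The labels call the samples biological replicates, and since B6 has a single array, its spread is taken to be that of the mutants. From correlations over dim probe sets, and not from the labels, the arrays divide into 2 sets. Set 1 holds Sf.Il2-/- 1, Sf.Il2-/- 2, Sf 1 and Sf 2, and set 2 holds Sf.Il2-/- 3, Sf 3 and B6. The lowest correlation within a set (0.552) lay below the highest between sets (0.563), so the division is uncertain. The neutrophil gene S100a8 read 7.63 in Sf.Il2-/- 2 and 6.37 in Sf 1, against 2.53 to 4.10 in the other arrays, and the part of these transcripts in the results was not tested beyond leaving both arrays out. Defining markers of CD4 T cells (Cd4, Cd3e and 4 others) were bright in every array. Their summed intensity differed between groups without overlap, at 12962 to 14687 in Sf.Il2-/-, 8209 to 11323 in Sf and 15877 in B6. Ncr1, which marks natural killer cells, lay at 2.14 to 3.12. The summed intensity of 4 natural killer cell markers was 117 to 154 in Sf.Il2-/-, 98.6 to 140 in Sf and 146 in B6. That of the 2 CD8 T cell markers was 151 to 201 in Sf.Il2-/-, 146 to 201 in Sf and 312 in B6. Of the cell type markers, 18 were tested and none passed in a comparison by limma, while 12 lay below the filter, among them S100a8 and Ncr1, and were not tested.

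The mutated genes were read first. Foxp3 read 4.41, 4.20 and 4.24 (log2) in Sf.Il2-/- arrays, 6.04, 5.87 and 6.32 in Sf arrays and 7.25 in the B6 array. It fell by 1.79 ± 0.23 in Sf.Il2-/- against Sf (SE, n = 3 and 3; adjusted p = 0.0211). The Sf.Il2-/- readings of Foxp3 lay below the filter level of 5, so the size is not exact, and with a pseudocount of 16 it was -1.26. The call was lost without Sf 1, Sf.Il2-/- 1 or Sf.Il2-/- 3 (adjusted p = 0.0837, 0.0594 and 0.0940). Il2 read 7.17, 8.20 and 7.74 in Sf.Il2-/- arrays, 5.39, 5.09 and 7.35 in Sf arrays and 5.22 in B6, so the arrays labelled Sf.Il2-/- are not lower at its probe set. The position of those probes against the disruption is unknown here, so the reading is no check of the genotype.

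**Figure D1:**
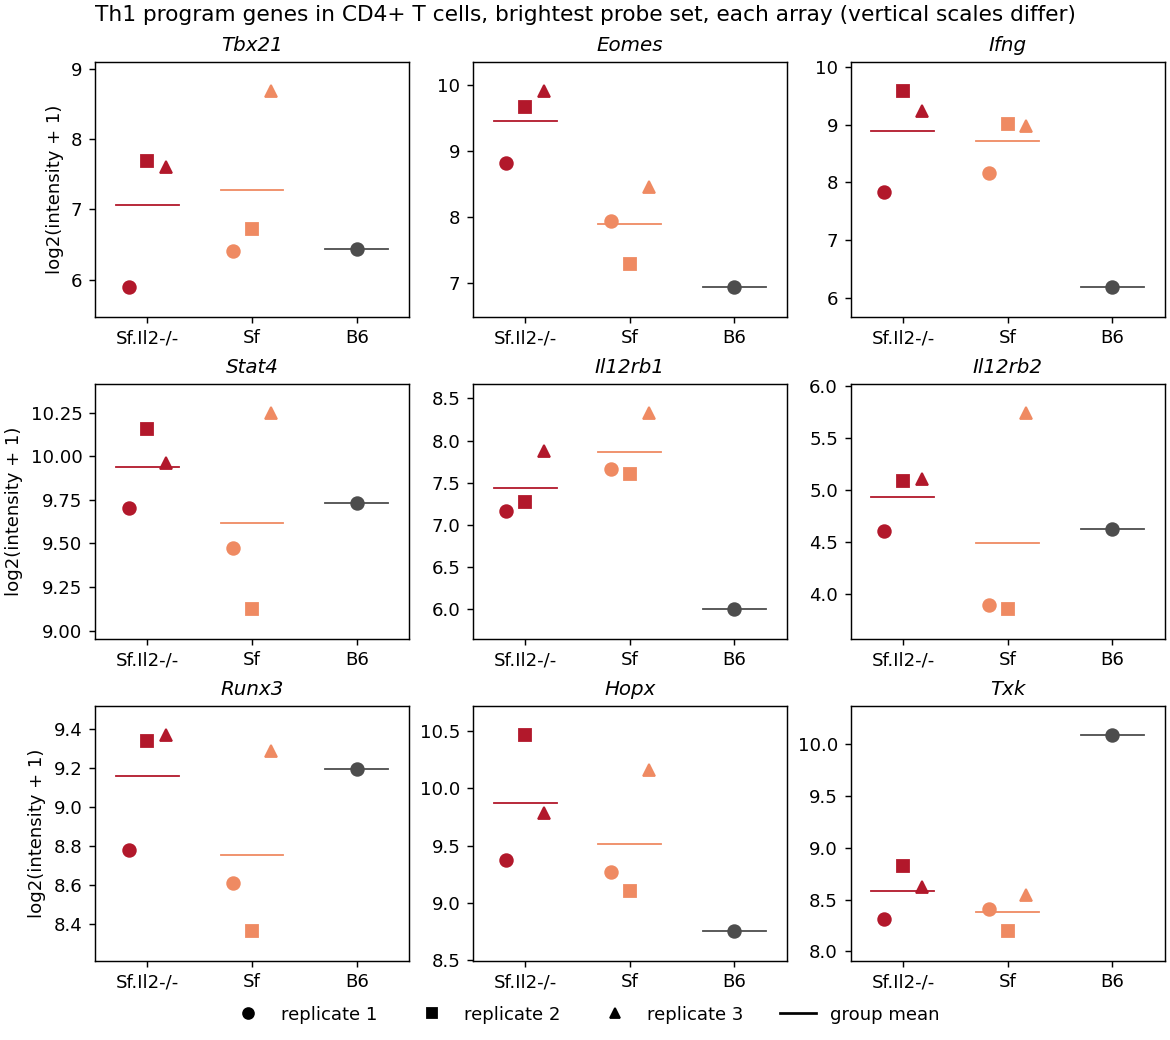
Each panel shows 1 Th1 program gene at its brightest probe set, with log2(intensity + 1) on the vertical axis (scales differ) and 1 point for each Sf.Il2-/-, Sf and B6 array; marker shapes give the replicate number and lines the group means. In Txk the B6 array, at 10.08, lies above all 6 mutant arrays, and in Ifng, at 6.18, below all of them.

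Il12rb1 and Il12rb2 encode the chains of the interleukin-12 receptor. Il12rb1 (probe set 1418166_at; gene at chr8:70808360-70823542, GRCm38.p6, the build of all gene positions here) encodes the chain that the interleukin-23 receptor also uses. It read 7.17, 7.27 and 7.87 in Sf.Il2-/- arrays, 7.66, 7.60 and 8.32 in Sf arrays and 6.00 in B6. Every mutant array lay above B6, and the mutant groups overlapped each other. The rise in Sf against B6 was 1.86 ± 0.38 (log2, SE, n = 3 and 1; adjusted p = 0.0398). That in Sf.Il2-/- against B6, 1.44 ± 0.38, did not pass (adjusted p = 0.0913). Between the mutant groups the difference, Sf.Il2-/- minus Sf, was -0.43 ± 0.27 (adjusted p = 0.804). With no filter, with eBayes without trend or with every probe set tested on its own, the call in Sf against B6 was lost. The call in Sf was near the threshold: its adjusted p was 0.0689 without Sf 1, 0.0565 without Sf.Il2-/- 1 and 0.0537 without Sf.Il2-/- 2. In Sf.Il2-/- it was 0.0245 with replicate numbers as a block, where the difference was 1.20, and 0.0142 without Sf 3. It was 0.0137 after quantile normalization, with a difference of 1.52, and 0.00287 with the array set as a block, with 1.88. A rise in Sf alone is therefore not shown.

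Il12rb2 (1421623_at; chr6:67285986-67376293) encodes the signalling chain, which limits the response to interleukin-12. It was dim throughout, at 4.60, 5.09 and 5.10 in Sf.Il2-/- arrays, 3.89, 3.85 and 5.74 in Sf arrays and 4.63 in B6. Sf 3 was the highest of all arrays and the other Sf arrays the lowest, so the groups overlapped. The mean differences were 0.44 between Sf.Il2-/- and Sf, -0.14 between Sf and B6 and 0.31 between Sf.Il2-/- and B6, with no test.

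Stat4 (1448713_at; chr1:51987106-52107189) encodes the factor that the interleukin-12 receptor activates. Its values were 9.70, 10.16 and 9.96 in Sf.Il2-/- arrays, 9.48, 9.12 and 10.25 in Sf arrays and 9.73 in B6. The B6 array lay within the range of Sf and of Sf.Il2-/-. The differences were 0.33 ± 0.28 between Sf.Il2-/- and Sf, -0.12 ± 0.40 between Sf and B6 (0.45 after quantile normalization) and 0.21 ± 0.40 between Sf.Il2-/- and B6. Their 95% intervals were -0.31 to 0.96, -1.01 to 0.78 and -0.69 to 1.11, and the adjusted p was 0.825 or higher in each.

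Tbx21 (1449361_at; chr11:97098007-97115331) encodes T-bet, the factor that defines the Th1 lineage. It read 5.89, 7.69 and 7.60 in Sf.Il2-/- arrays, 6.41, 6.72 and 8.68 in Sf arrays and 6.44 in B6. In intensity the Sf arrays ran from 84.3 to 409. The arrays Sf.Il2-/- 1 and Sf 1 lay below B6 and the other 4 mutant arrays above it, and the mutant groups overlapped. The spread of Tbx21 within groups was large: its residual SD of 1.13 exceeded that of 99.5% of tested genes. The differences were -0.21 ± 0.62 between Sf.Il2-/- and Sf, 0.83 ± 0.88 between Sf and B6 and 0.61 ± 0.88 between Sf.Il2-/- and B6, with adjusted p of 0.968, 0.578 and 0.752. In the last comparison the 95% interval was -1.35 to 2.58. The direction against B6 turned with replicate numbers as a block, to -0.18 in Sf and -0.40 in Sf.Il2-/-. Against Sf it turned to 0.49 without Sf 3 and to 0.37 without Sf.Il2-/- 1. Between array sets, Sf 3 exceeded the mean of Sf 1 and Sf 2 by 2.11 for Tbx21, against a median of 0.35 over all tested genes.

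Eomes (1435172_at; chr9:118478186-118486132) encodes the other T-box factor among the members. It read 8.82, 9.66 and 9.90 in Sf.Il2-/- arrays, 7.95, 7.29 and 8.46 in Sf arrays and 6.94 in B6. The groups did not overlap, with every Sf.Il2-/- array above every Sf array and every Sf array above B6. Eomes rose by 2.52 ± 0.50 in Sf.Il2-/- against B6 (n = 3 and 1; adjusted p = 0.0346), a call lost with no filter. Without Sf.Il2-/- 2 or Sf.Il2-/- 3 this call was lost, at adjusted p of 0.0782 and 0.0737, with differences of 2.42 and 2.30. In Sf.Il2-/- against Sf the difference was 1.56 ± 0.35, 2.95-fold, with a 95% interval of 0.77 to 2.36, and it did not pass over all genes (n = 3 and 3; adjusted p = 0.197). It was 1.62 within array set 1 (2 arrays against 2) and 1.44 within set 2 (1 against 1), without a test. The sets were drawn from these same arrays and are uncertain. The difference passed with the array set as a block (adjusted p = 0.0437) and without Sf 3 (adjusted p = 0.0198). Its adjusted p over all alternatives ran from 0.0198 to 0.583. The summed natural killer and CD8 T cell markers of Sf.Il2-/- arrays overlapped those of Sf arrays, and the CD8 sum lay below B6 in every mutant array. Ncr1 lay below the filter, and the part of such cells in the values of Eomes was not tested. Sf exceeded B6 by 0.96 ± 0.50 (adjusted p = 0.280). The other probe set of Eomes (1426001_at) gave the same order of groups without overlap. It read 8.56, 9.45 and 9.84 in Sf.Il2-/- arrays, 7.81, 6.95 and 8.06 in Sf arrays and 6.43 in B6. With every probe set tested on its own, it exceeded B6 by 2.85 ± 0.53 in Sf.Il2-/- (adjusted p = 0.0360) and Sf by 1.68 ± 0.38 (adjusted p = 0.268).

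Runx3 (1440275_at; chr4:135120645-135177990), the partner of T-bet, read 8.78, 9.34 and 9.37 in Sf.Il2-/- arrays, 8.61, 8.36 and 9.29 in Sf arrays and 9.19 in B6. The B6 value lay inside the range of both mutant groups. The differences were 0.41 ± 0.28 between Sf.Il2-/- and Sf, -0.44 ± 0.40 between Sf and B6 and -0.033 ± 0.40 between Sf.Il2-/- and B6 (0.27 after quantile normalization), and the adjusted p was 0.512 or higher in each. Its dimmer probe set (1421467_at) differed by 0.18, -0.46 and -0.28 in the same comparisons, and none of these passed.

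Ifng (1425947_at; chr10:118441046-118445894) encodes interferon gamma, the cytokine that Th1 cells secrete to activate macrophages. It read 7.84, 9.58 and 9.23 in Sf.Il2-/- arrays, 8.16, 9.01 and 8.98 in Sf arrays and 6.18 in B6. All 6 mutant arrays lay above B6, and the mutant groups overlapped. Sf.Il2-/- exceeded B6 by 2.70 ± 0.61 (n = 3 and 1; 95% interval 1.34 to 4.06; adjusted p = 0.0505). Sf exceeded B6 by 2.54 ± 0.61 (n = 3 and 1; 95% interval 1.18 to 3.89; adjusted p = 0.0612). With the replicate numbers as a block both passed, at 1.90 in Sf.Il2-/- (adjusted p = 0.0164) and 1.73 in Sf (adjusted p = 0.0180). Over the alternatives the adjusted p ran from 0.00401 to 0.105 in Sf.Il2-/- and from 0.000347 to 0.111 in Sf. Ifng also passed without Sf 3 or Sf.Il2-/- 1 in both comparisons, and without Sf 1 or Sf 2 in Sf.Il2-/- v B6. It passed in both after quantile normalization and with the array set as a block, and in Sf.Il2-/- v B6 with arrays centred or a filter at 6. Of 17 tested alternatives it passed in 10 in Sf.Il2-/- v B6 and in 6 in Sf v B6, all with the same single B6 array. The lowest adjusted p in both comparisons came without the 2 arrays that carry neutrophil transcripts, with differences of 2.35 in Sf.Il2-/- and 2.82 in Sf. That fit held 2, 2 and 1 arrays of Sf.Il2-/-, Sf and B6. The 2 arrays left out held the highest Ifng reading of Sf.Il2-/- and the lowest of Sf, so the lower adjusted p is not taken as firmer evidence. Sf.Il2-/- and Sf differed by 0.16 ± 0.43 (95% interval -0.80 to 1.12; adjusted p = 0.966), which became -0.46 without those 2 arrays. Since these are bulk samples, fewer cells with a transcript and less of it per cell cannot be told apart, for Ifng and for the other genes.

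Hopx (1428662_a_at; chr5:77086986-77115123) encodes a small homeodomain protein that long-lived Th1 effector memory cells express. It read 9.38, 10.46 and 9.78 in Sf.Il2-/- arrays, 9.27, 9.11 and 10.16 in Sf arrays and 8.75 in B6. All mutant arrays lay above B6, and the mutant groups overlapped. The difference from B6 was 1.12 ± 0.48 in Sf.Il2-/- (adjusted p = 0.252) and 0.76 ± 0.48 in Sf (adjusted p = 0.360). Sf.Il2-/- exceeded Sf by 0.36 ± 0.34 (adjusted p = 0.885), against 0.73 in the arrays of set 1 and -0.37 in those of set 2. At the other probe set (1451776_s_at) the Sf array 2, at 7.86, lay below B6, at 7.89, and no comparison passed.

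Txk (1425785_a_at; chr5:72695978-72752992) encodes a kinase of the Tec family that acts below the T cell receptor and has been described in human cells as a Th1 factor. It read 8.31, 8.83 and 8.62 in Sf.Il2-/- arrays, 8.41, 8.19 and 8.54 in Sf arrays and 10.08 in B6. The 6 mutant arrays lay close together and below B6, and the residual SD of 0.221 exceeded that of only 30.5% of tested genes. Txk fell by 1.50 ± 0.30 in Sf.Il2-/- against B6 (adjusted p = 0.0378) and fell by 1.70 ± 0.30 in Sf against B6 (adjusted p = 0.0240). Sf.Il2-/- and Sf differed by 0.21 ± 0.22 (95% interval -0.28 to 0.69; adjusted p = 0.899). Within array set 2, the only set with B6, Txk differed by -1.46 in Sf.Il2-/- and by -1.54 in Sf, each 1 array against the same B6 array. With no filter the call in Sf.Il2-/- against B6 was lost. The call in Sf was lost without Sf 1 (adjusted p = 0.0755). That in Sf.Il2-/- was lost without Sf 1 (adjusted p = 0.0835) and without Sf.Il2-/- 1, Sf.Il2-/- 2 or Sf.Il2-/- 3 (adjusted p = 0.116, 0.0651 and 0.0751). Without the 2 arrays that carry neutrophil transcripts, Sf.Il2-/- 2 and Sf 1, neither call held, at -1.62 in Sf.Il2-/- (adjusted p = 0.0969) and -1.72 in Sf (adjusted p = 0.0608). Markers of CD4 T cells were also dimmer in Sf than in B6 without passing, Cd4 by -1.31 ± 0.47 (adjusted p = 0.148) and Cd5 by -1.21 ± 0.32 (adjusted p = 0.0829), and their part in the values of Txk was not tested.

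**Figure D2:**
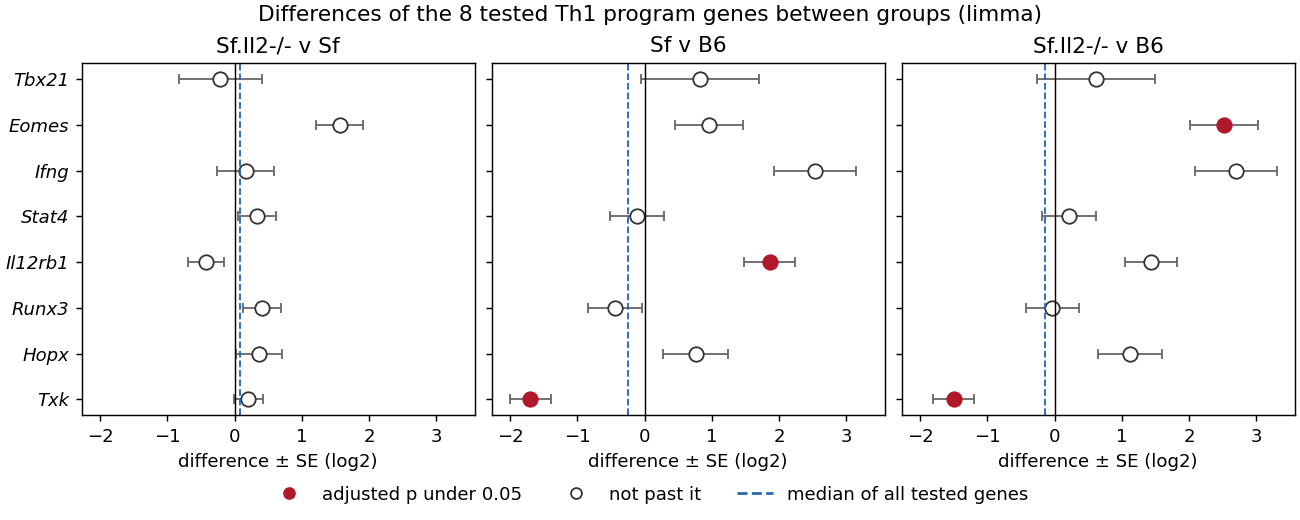
Differences of the 8 tested members on the log2 scale (horizontal axis) with their SE from limma, for Sf.Il2-/- v Sf, Sf v B6 and Sf.Il2-/- v B6; filled points passed an adjusted p of 0.05 and dashed lines give the median of all tested genes. Eomes at 2.52 and Txk at -1.50 are filled in Sf.Il2-/- v B6, Il12rb1 at 1.86 and Txk at -1.70 in Sf v B6, and none in Sf.Il2-/- v Sf.

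As a group, the members were counted beside all genes. In Sf.Il2-/- v Sf, 0 of 8 tested members passed by limma, where 0.279% of all tested genes did (32 genes, with 0.0436% higher and 0.236% lower). The balance of higher and lower genes rested on Sf 3, without which 670 genes were higher and 184 lower. By unadjusted p under 0.05, 1 member passed (Eomes), where 7.92% of genes did. In Sf v B6, 2 of 8 passed, 1 higher and 1 lower, where 2.47% of genes did (1.31% higher, 1.16% lower). In Sf.Il2-/- v B6, 2 of 8 passed, 1 higher and 1 lower, where 2.69% of genes did (1.49% higher, 1.2% lower). With the replicate numbers as a block, 0 members passed in Sf.Il2-/- v Sf, 3 in Sf v B6 and 4 in Sf.Il2-/- v B6, among 60, 1880 and 1212 calls over all genes. The median difference of the tested members was 0.27 in Sf.Il2-/- v Sf, 0.79 in Sf v B6 and 0.87 in Sf.Il2-/- v B6, beside 0.078, -0.25 and -0.14 over all tested genes. Both comparisons with B6 share the same B6 array, so their values are not separate evidence. The number of members whose arrays lay wholly above the other group was 1 in Sf.Il2-/- v Sf, where 8.39% of all genes did so. It was 4 in Sf v B6 (19.6% of all genes) and 4 in Sf.Il2-/- v B6 (24.7% of all genes), namely Eomes, Ifng, Il12rb1 and Hopx in both. Txk alone lay wholly below B6, in both mutant groups, where 46.9% of all genes did so in Sf and 44.5% in Sf.Il2-/-. Quantile normalization moved the all-gene median of Sf v B6 to 0.023. Relative to the all-gene median, Il12rb1 stood at 2.11 and Txk at -1.46 in Sf, and Eomes at 2.66 and Txk at -1.36 in Sf.Il2-/-.

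The members did not vary as a block over the 7 arrays. Pearson's r, given as a description over 7 arrays that also differ in group and array set, was 0.92 between Stat4 and Runx3, 0.80 between Ifng and Il12rb1 and 0.80 between Eomes and Hopx. It was 0.43 between Tbx21 and Eomes and 0.61 between Tbx21 and Ifng. Txk ran against Ifng (-0.70) and Il12rb1 (-0.79). Sf 3 held the highest value of Tbx21, Stat4, Il12rb1 and Il12rb2 among all 7 arrays, and Sf.Il2-/- 2 or Sf.Il2-/- 3 that of Eomes, Ifng, Runx3 and Hopx. Of the tested genes outside the list, those with the pattern most like Ifng were Gem (r = 0.98), Ctla2a (0.97) and Pmaip1 (0.97). Those most like Tbx21 were Mkrn2 (0.99, with values only from 7.76 to 8.13), Ncf1 (0.98) and Got1 (0.97).

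**Figure D3:**
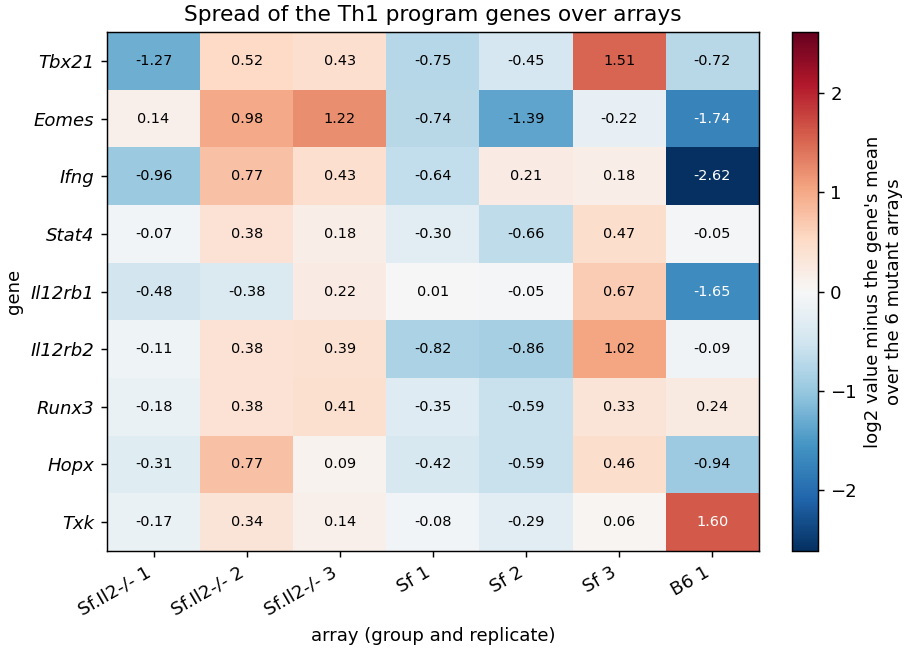
Each cell gives a member's log2 value in 1 array minus the mean of that gene over the 6 mutant arrays; columns are arrays, grouped as Sf.Il2-/-, Sf and B6. The B6 column is darkest at Ifng (-2.62) and opposite in sign at Txk (1.60), while Tbx21 differs most among the mutant arrays, from -1.27 in Sf.Il2-/- 1 to 1.51 in Sf 3.

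Genes around the members were taken from 4 lists of the pathway. Their counts stand beside 0.279% of all tested genes passing in Sf.Il2-/- v Sf, 2.47% in Sf v B6 and 2.69% in Sf.Il2-/- v B6. Of the effector genes that T-bet and interleukin-12 induce, 13 were tested. In Sf.Il2-/- against Sf 1 rose, 0 fell and 12 did neither, with a list median 0.53 above that of all genes. Over the alternatives the count of calls there ran from 0 to 6. Ccl4, a chemokine gene of activated T cells, read 7.99, 9.77 and 8.67 in Sf.Il2-/- arrays, 5.91, 5.83 and 6.49 in Sf arrays and 4.53 in B6, without overlap between groups. It rose by 2.74 ± 0.40 against Sf (n = 3 and 3; adjusted p = 0.0322), a call lost in 4 of 17 alternatives. Among them were the fits without Sf 1, Sf 2 or Sf.Il2-/- 3 (adjusted p = 0.0782, 0.0877 and 0.116). In Sf against B6, 3 effector genes rose and 0 fell, and the list median stood 1.51 above that of all genes. They were Cxcr6, a receptor for a chemokine of inflamed tissue (3.44 ± 0.40; adjusted p = 0.00495), Gzmb, the gene of the protease granzyme B (3.07 ± 0.48; adjusted p = 0.0153), and Havcr2, the gene of the inhibitory receptor TIM-3 (4.03 ± 0.66; adjusted p = 0.0176). Havcr2 read 1.99 in B6, near the floor, so its size is not exact, and with a pseudocount of 16 it was 2.10 (adjusted p = 0.0706).

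In Sf.Il2-/- against B6, where 2.69% of all tested genes passed, 6 of the 13 effector genes rose and 0 fell. The list median stood 2.38 above that of all genes. Ccl4 rose by 4.28 ± 0.57 (adjusted p = 0.00782). Its B6 reading lay below the filter level, which makes this difference approximate, and with a pseudocount of 16 Ccl4 differed by 3.61 (adjusted p = 0.0127). Gzmb rose by 3.68 ± 0.48 (adjusted p = 0.00767) and Havcr2 by 3.94 ± 0.66 (adjusted p = 0.0182, and 0.0873 with a pseudocount of 16). Nkg7, a membrane protein of cytotoxic granules, rose by 3.17 ± 0.55 (adjusted p = 0.0201, and 0.0533 without Sf.Il2-/- 3). Cxcr6 (adjusted p = 0.0336) and the chemokine gene Ccl5 (adjusted p = 0.0359) made up the count. Gzmb read 9.78, 10.79 and 10.51 in Sf.Il2-/- arrays, 10.16, 9.06 and 10.04 in Sf arrays and 6.68 in B6, so the mutant groups overlapped and both lay above B6. Without Sf.Il2-/- 3 the count was 3, and without Sf.Il2-/- 2 it was 4. Without Sf 3 the effector list had 6 calls in Sf.Il2-/- against Sf and 5 in Sf against B6. With all arrays, Cxcr6 was lower in Sf.Il2-/- than in Sf, at -1.37 ± 0.29 (adjusted p = 0.149). Ccl5 was higher, at 3.40 ± 0.57 (adjusted p = 0.0547). Neither passed by limma. The Sf.Il2-/- arrays lay wholly above Sf in Ccl5, where 8.39% of all tested genes did so. In Cxcr6 they lay wholly below, and the share of all genes that did so is not given here. Of the 13 differences between the mutant groups, 8 were above 0 and 5 below.

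Of the interferon gamma induced genes, 14 were tested. In Sf.Il2-/- against Sf 0 rose and 0 fell, and in each comparison with B6 1 rose, 0 fell and 13 did neither. The gene that rose was Cxcl10, a chemokine that draws CXCR3-bearing T cells, by 3.28 ± 0.43 in Sf.Il2-/- (adjusted p = 0.00767) and by 3.57 ± 0.43 in Sf (adjusted p = 0.00562). It read 8.94, 8.81 and 8.97 in Sf.Il2-/- arrays, 8.56, 9.19 and 9.86 in Sf arrays and 5.63 in B6. The member with the lowest p in Sf.Il2-/- against Sf, the immunoproteasome gene Psmb8, differed by 0.67 ± 0.21 and did not pass (adjusted p = 0.430). Without Sf 3 the list had 7 calls in Sf.Il2-/- v Sf, 6 in Sf v B6 and 4 in Sf.Il2-/- v B6. The list medians stood 0.15, 0.31 and 0.49 above those of all genes in Sf.Il2-/- v Sf, Sf v B6 and Sf.Il2-/- v B6.

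Of the regulators and partners of the Th1 factors, 13 were tested. Bhlhe40, a repressor that Th1 cells need for full interferon gamma production, rose by 4.13 ± 0.40 in Sf.Il2-/- (adjusted p = 0.00172) and by 4.41 ± 0.40 in Sf (adjusted p = 0.00166) against B6. It read 10.07, 10.09 and 10.34 in Sf.Il2-/- arrays, 9.89, 10.40 and 11.06 in Sf arrays and 6.04 in B6. Tec, a kinase of the same family as Txk, fell by 1.26 ± 0.28 in Sf.Il2-/- against B6 (adjusted p = 0.0499). This call was lost in 11 of 16 alternatives, among them without any 1 of the 6 mutant arrays except Sf 3. Tec was the only list member to fall in Sf.Il2-/- against B6, and no regulator fell in Sf against B6. Between the mutant groups none of the 13 passed by limma, the lowest p being that of Ets1, a factor that works with T-bet, at 0.56 ± 0.20 (adjusted p = 0.493). Without Sf 3 the regulators had 6 calls in Sf v B6, and with the replicate block they had 4 in each comparison with B6.

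Of the receptor chains and kinases that sense interferon gamma and the interleukins of the Th1 pathway, 8 were tested. Jak1, a kinase bound to the interferon gamma receptor, fell by 1.27 ± 0.25 in Sf against B6 (adjusted p = 0.0313), a call lost without Sf 1 (adjusted p = 0.0889) or any 1 Sf.Il2-/- array, and after quantile normalization (-0.71; adjusted p = 0.0517). The other 7 did not pass there, and 0 of the 8 passed in either other comparison by limma. Those with the lowest p there were Jak1 at 0.61 ± 0.18 in Sf.Il2-/- against Sf (adjusted p = 0.375) and the receptor gene Ifngr2 at -1.17 ± 0.39 in Sf.Il2-/- against B6 (adjusted p = 0.163). The list medians relative to all genes were 0.15, -0.082 and -0.24.

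**Figure D4:**
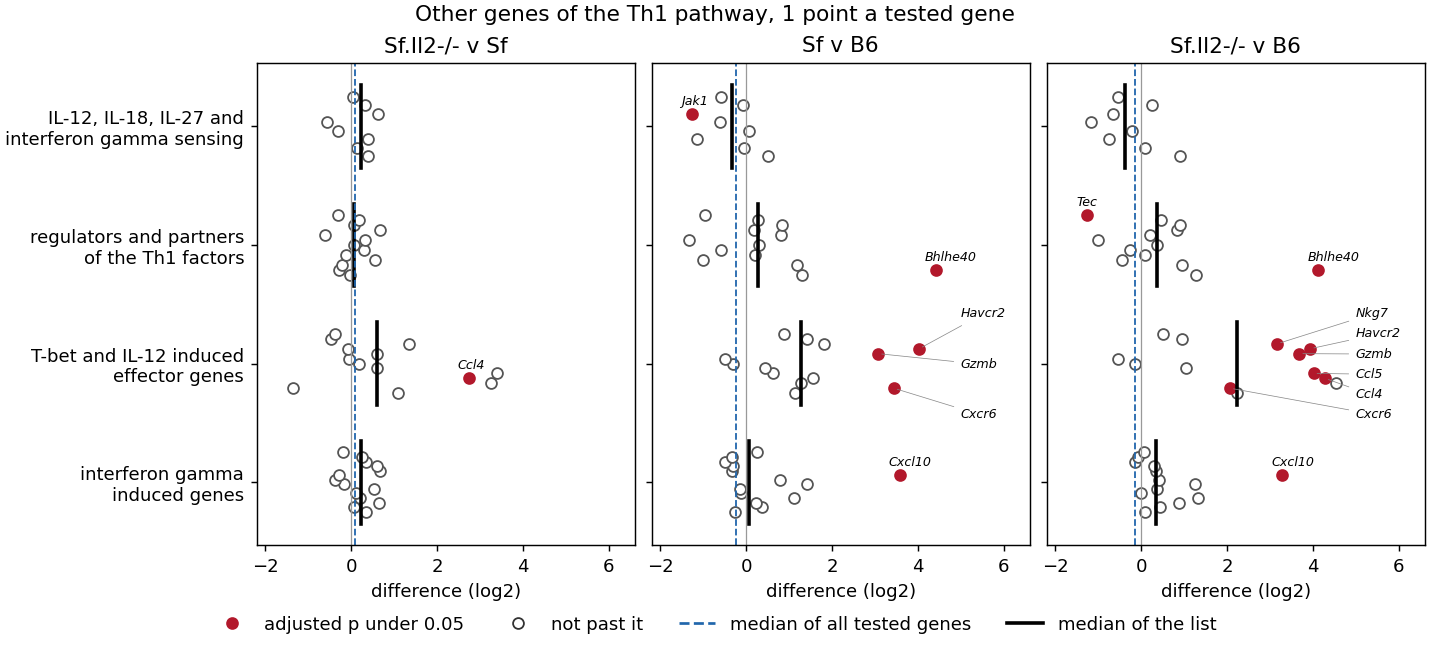
Each point is a tested gene of 1 of the 4 pathway lists (rows), placed by its difference on the log2 scale (horizontal axis) in Sf.Il2-/- v Sf, Sf v B6 and Sf.Il2-/- v B6; filled and named points passed an adjusted p of 0.05, thick lines are list medians and dashed lines the median of all tested genes. The effector genes hold 1, 3 and 6 filled points in the panels from left to right.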

How the data were processed

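RNA of CD4+ T cells was measured on 7 Affymetrix arrays, and the values deposited by the authors are linear intensities per probe set. GCRMA and GCOS are named, without versions, in the submitters' processing notes, and further steps are not given in the sources used here. Every column matched 1 sample by its label. No pair of arrays had more than 0.535% identical values.

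Of 45037 probe sets, 34945 named 1 gene, 932 several and 9160 none in the array annotation, and 34741 symbols were updated through Entrez numbers (GRCm38.p6). The deposited intensities were taken to log2(intensity + 1), with the brightest probe set for each gene and a filter at 5. The comparisons used limma 3.58.1 (R 4.3.3), with 3 group means over all 7 arrays, with an intensity trend in eBayes and Benjamini-Hochberg adjustment over 11460 genes at 0.05. The fit was also run on simulated data with independent noise for each gene and array. Those data lack the array sets and the correlations between arrays described here, so the run is no check of their effect. Python 3.11.15 and matplotlib 3.10.9 drew the figures.

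Members, lists and tests were chosen with earlier results of these data known. Named were all members, Il2, Foxp3, up to 4 list genes past the threshold for each list and comparison, or else the one with the lowest p, and the 3 genes nearest in pattern to Ifng and Tbx21. Cxcr6 and Ccl5 were named beyond it, after their values were seen, to complete a count and to give their differences between the mutant groups. So were Cd4, Cd3e, Cd5, Cd8a, Zbtb16, Ncr1 and S100a8 among markers. Il12rb2, Hlx, Twist1, Xcl1 and Ciita lay below the filter, and some other list genes are not reported here.

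As a check of pairing by replicate number, deviations from group means were correlated between same-numbered arrays of Sf.Il2-/- and Sf, giving 0.301, 0.211 and 0.505, each above the 0.1 taken as a sign of pairing. The comparisons were nevertheless fitted without the block, as designed, and values with it are given where they change a call or a count. The titles give only numbers, and Sf.Il2-/- 1 correlated at 0.333 with Sf 2. The alternatives were other normalizations, filters, a pseudocount of 16, eBayes without trend, the mean or each of the probe sets, the mutant arrays alone, blocks for replicate number or array set, and leaving out arrays.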

Additional observations from a re-analysis of the deposited data

How the results depend on the processing

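Against 8 tested members and 11460 genes, the counts of calls moved with the setting as follows. In Sf.Il2-/- v Sf the member count was 1 (Eomes) with the array set as a block and ran from 0 to 1 with 1 array left out, the 1 being without Sf 3. Over all genes the 32 calls became 11 with no filter, 60 with the replicate block, 74 with the array set block and 52 without the 2 arrays with neutrophil transcripts. They ran from 8 without Sf.Il2-/- 3 to 854 without Sf 3, where 670 were higher and 184 lower, against 5 higher and 27 lower with all arrays.

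In Sf v B6 the member count was 1 with no filter and 1 with eBayes without trend, and ran from 0 (without Sf 1) to 3 with 1 array left out. Over all genes the 283 calls (150 higher, 133 lower) became 537 after quantile normalization (380 higher, 157 lower), 541 with arrays centred (198 higher, 343 lower), 161 with no filter, 188 with the mean of probe sets, 1880 with the replicate block (490 higher, 1390 lower) and 605 with the array set block (394 higher, 211 lower), and ran from 118 to 3509, the highest without Sf 3 (679 higher, 2830 lower). In Sf.Il2-/- v B6 the member count was 4 after quantile normalization, 0 with no filter, 4 with the replicate block and 4 with the array set block. It ran from 0 (without Sf.Il2-/- 2 or 3) to 4 (without Sf 3). Over all genes the 308 calls (171 higher, 137 lower) became 708 after quantile normalization (473 higher, 235 lower), 138 with no filter, 1212 with the replicate block (345 higher, 867 lower) and 721 with the array set block (464 higher, 257 lower), and ran from 129 to 1560 with 1 array left out, the highest without Sf 3 (539 higher, 1021 lower).

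The replicate block added Ifng to the calls in both comparisons with B6 and Il12rb1 in Sf.Il2-/- v B6, and changed no other call of a member. B6 carries number 1, so the block sets it chiefly against the arrays with that number, and this can move differences from B6. The cause of the other changes was not tested.

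Directions turned for members that passed nowhere. In Sf.Il2-/- v Sf, without the arrays with neutrophil transcripts, Ifng was -0.46 and Hopx -0.052. With 1 array left out Ifng ran from -0.18 to 0.69 and Tbx21 from -0.64 to 0.49. In Sf v B6 Stat4 was 0.45 after quantile normalization and 0.21 with the array set block, and ran from -0.43 to 0.13 with 1 array left out. There Tbx21 was -0.18 with the replicate block. In Sf.Il2-/- v B6 Runx3 was 0.27 after quantile normalization and 0.34 with the array set block, and ran from -0.14 to 0.16 with 1 array left out, and Tbx21 was -0.40 with the replicate block.

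Over all tested alternatives and comparisons the values of members held direction and side of the threshold in 371 cases, lost the threshold in 17, gained it in 22 and turned in 15. Of 32 values within an array set, which have no test, 26 had the sign found over all arrays and 6 the other. Those 6 belong to Tbx21, Stat4 and Hopx in Sf.Il2-/- v Sf, Stat4 and Runx3 in Sf v B6 and Runx3 in Sf.Il2-/- v B6. Signal limits the dimmest readings: Il12rb2 lay below the filter in every group mean, and Havcr2 read 1.99 in B6, near the floor.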
